A study of Mus musculus with 11 samples.

Results

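The fibroblast growth factor (FGF) family was examined in mouse skeletal muscle as 34 gene symbols of the 24421 in the count tables: 18 secreted FGF ligands, 4 intracellular homologous factors, the receptors Fgfr1 to Fgfr4, the kinase-free receptor Fgfrl1, the inhibitors Spry1 to Spry4 and the related inhibitors Spred1 to Spred3. They were taken by name (Fgf, Fgfr, Fgfrl1, Spry and Spred symbols). The rule did not use their values, but it was set with earlier results of these data known. Transcripts were compared between WT mice and mice with 1 floxed Ctnnb1 allele (WT/flox). In that allele exon 3, which holds the sites that mark beta-catenin for degradation, lies between loxP sites, and the series' design text describes tamoxifen-injected mice with a Hic1 CreERT2 driver and a tdTomato reporter. The driver acts in cells that express Hic1, a gene of mesenchymal progenitors, so cells without Hic1 are not its target. Which other cells of the muscle express Hic1 was not examined here. All 11 animals are labelled by their day after tamoxifen and as resting muscle, with no age given. Mesenchymal progenitors, also called fibro/adipogenic progenitors, were sorted from hindlimb muscle as CD45- CD31- Sca1+ tdTomato+ alpha7- cells, so WT cells carried the active reporter as well. There were 3 WT libraries at day 14 and 3 WT/flox libraries, replicates 1 and 2 at day 14 and replicate 3 at day 56. Whole lysate of the tibialis anterior muscle gave 2 WT and 3 WT/flox libraries, all at day 56. Each library came from a separate animal.

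FGF ligands bind receptor tyrosine kinases together with heparan sulfate or, for the hormone-like members, a Klotho protein. The receptors pass the signal through FRS2, GRB2 and RAS to the ERK kinases. Sprouty and Spred proteins act inside the cell on this route and restrain it, and several of their genes are themselves induced by it. Fgfrl1 binds FGF ligands and heparin but lacks a kinase domain. In skeletal muscle FGF2 and FGF6 are known for their action on satellite cells, and Sprouty1 for the return of these cells to quiescence.

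The promoters of the called receptor genes and of Spry2 are shown because these genes moved in opposite directions, and they were searched for letters bound by TCF/LEF factors, the DNA partners of beta-catenin, and by ETS factors, which act downstream of ERK. Each sequence is the 250 bases before the RefSeq start on GRCm38.p6, on the strand of the gene, 5′ to 3′, with matches in capitals.
Fgfrl1 promoter, chr5:108693979-108694228, plus strand: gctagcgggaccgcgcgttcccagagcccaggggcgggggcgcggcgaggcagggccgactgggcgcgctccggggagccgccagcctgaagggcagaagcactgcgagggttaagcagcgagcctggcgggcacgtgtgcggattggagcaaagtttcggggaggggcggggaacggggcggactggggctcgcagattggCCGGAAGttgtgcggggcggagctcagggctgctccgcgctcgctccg
Fgfr2 promoter, chr7:130266809-130267058, minus strand: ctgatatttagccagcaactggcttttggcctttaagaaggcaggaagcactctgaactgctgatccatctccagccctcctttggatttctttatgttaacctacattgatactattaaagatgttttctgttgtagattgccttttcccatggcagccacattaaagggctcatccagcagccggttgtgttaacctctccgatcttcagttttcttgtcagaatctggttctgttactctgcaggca
Spry2 promoter, chr14:105896820-105897069, minus strand: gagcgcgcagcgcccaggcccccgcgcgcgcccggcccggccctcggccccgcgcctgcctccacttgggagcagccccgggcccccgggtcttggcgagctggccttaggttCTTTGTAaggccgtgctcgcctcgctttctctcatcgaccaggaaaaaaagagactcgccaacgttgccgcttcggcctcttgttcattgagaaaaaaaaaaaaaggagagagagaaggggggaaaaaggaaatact

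The TCF/LEF search took CTTTG followed by AA, AT, TA or TT on either strand, and the ETS search took CCGGAAG on either strand. Spry2 held CTTTGTA from 137 to 131 bases before the start, and Fgfrl1 held CCGGAAG from 48 to 42 bases before it. Neither set of letters was in the Fgfr2 window. The other called members, Fgf16 and Fgf1, had no entry among the promoters used and were not searched. Over the 32 RefSeq entries for 25 of the members, 5 (15.6%) held a TCF/LEF match, against 14.8% of 32851 mouse promoters of the same length. An ETS match was in 1 of the 32 entries (3.12%), against 6.91% of all promoters. The other TCF/LEF matches were in Fgf3, Fgf6, Fgf7 and Fgf23. These are matches of letters and not measured sites.

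Libraries held 13119843 to 16805238 counts for progenitors and 16892158 to 19449227 for muscle. Levels are CPM, a gene's counts relative to the library's total, after TMM scaling, a correction for library composition. Ctnnb1 itself was at 459, 460 and 526 CPM in WT against 404, 378 and 424 CPM in WT/flox progenitors, a count over the whole gene that does not check removal of exon 3. Axin2, a transcriptional target of beta-catenin, was at 2.71 to 4.07 CPM in WT against 136 to 170 CPM in WT/flox progenitors, with no overlap. The 10 progenitor markers made up 5.09 to 5.53% of counts in WT against 6.66 to 7.48% in WT/flox sorted libraries, with 0 of the 10 at 0. The 6 tendon markers ranged from 0.113 to 0.164% in WT and from 0.168 to 0.216% in WT/flox, and the 8 mural markers from 0.0191 to 0.0303% and from 0.0106 to 0.0173%. Within these lists the markers did not move as 1. Of the 2 leading tendon markers Thbs4 was at 904 to 1098 CPM in WT against 1620 to 2008 CPM in WT/flox, while Fmod was lower in WT/flox, at 151 to 384 CPM in WT against 53.5 to 115 CPM. The leading mural marker Cspg4 was at 95.6 to 219 CPM in WT against 26.7 to 37.0 CPM in WT/flox, and Abcc9 overlapped. The 3 summed shares did not overlap between genotypes, and their part in the results below was not tested. Endothelial markers (8) stayed at or below 0.0038% and immune markers (9) at or below 0.0015%. Across the sorted libraries, the 8 satellite cell markers took between 0.0090 and 0.0176% of counts. Of these 8, between 3 and 5 were at 0, while Sdc4 and Chodl were detected in every sorted library. Sdc4 led this list, with at least 76.3 CPM in each sorted library and at most 37.3 CPM in any muscle library. Chodl was at 3.82 CPM or more. Myofibre markers (10) took 0.0020 to 0.0141% of counts in WT and 0.0020 to 0.0026% in WT/flox sorted libraries. In muscle, the 10 myofibre markers made up 17.3 to 19.3% of counts in WT and 13.5 to 17.4% in WT/flox, with overlap. Of the 2 leading ones Atp2a1 overlapped, while Myh4 was at 35721 to 36564 CPM in WT against 18960 to 25159 CPM in WT/flox. The part of this in the muscle results was not tested. The animal identifiers begin 73A in both WT and 71B in all 3 WT/flox muscle libraries, so that series and genotype cannot be told apart there.

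In WT progenitors the family was led by its inhibitors and by 1 receptor. Per kilobase of annotated exon, Spry2 was at 129 ± 3.80 CPM, Spry1 at 72.7 ± 12.1 and Fgfr1 at 70.6 ± 8.24 (SD, n = 3), followed by the ligands Fgf18 at 35.1 ± 12.1 and Fgf7 at 19.0 ± 6.13 and by Spred1 at 20.7 ± 1.43. Spry1 and Fgfr1 did not differ beyond their spread. With the length of the principal transcript in place of all exons, Fgfr1 came first, at 139 CPM per kb. Fgfr1 made up 99.2 to 99.4% of the summed level per kb of the 4 kinase receptors. WT muscle had another order. Spry1 was at 13 ± 1.37 CPM per kb, Fgf1 at 11.1 ± 0.241 and Fgfrl1 at 10.8 ± 0.222 (SD, n = 2), then Spry2 at 7.86 ± 0.355, Fgf13 at 7.85 ± 1.20 and Fgfr1 at 5.96 ± 0.438. Both Spry1 libraries lay above all Fgf1 and Fgfrl1 libraries, and the latter genes overlapped. On principal transcript length Fgf1 came first at 15.3 CPM per kb, before Spry1 at 13.7 and Fgfrl1 at 12.9. Fgf13 at 12.6 and Fgfr1 at 11.7 CPM per kb then stood above Spry2 at 7.86. Fgfr1 held 78.9 to 80.9% of the kinase receptor level in WT muscle, with Fgfr3 and Fgfr4 making up most of the rest.

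**Figure D1:**
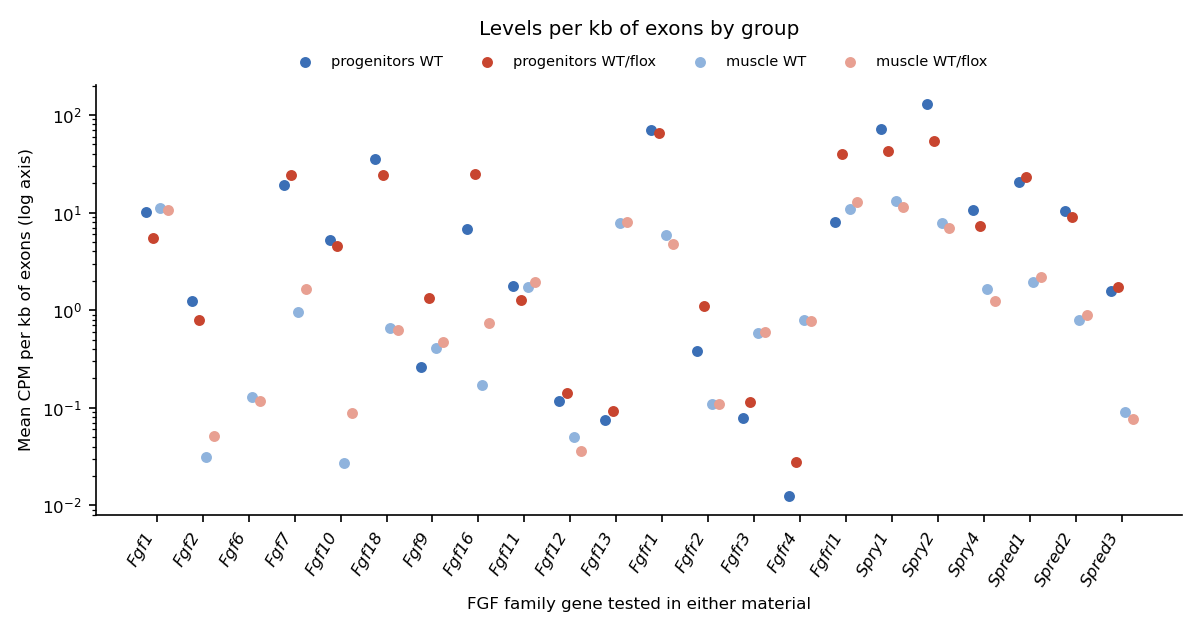
Mean TMM-scaled CPM per kb of exons (vertical log axis) of each family gene tested in either material (horizontal axis), as 1 point for each of the 4 groups. Spry2, Spry1 and Fgfr1 stand highest in WT progenitors at 129, 72.7 and 70.6 CPM per kb. Groups at 0 are not drawn.

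Not all members were expressed. In progenitors 18 of the 34 passed the filter on low counts, and 14 of the 16 that did not had at most 10 counts over all 6 libraries. Fgf3, Fgf4, Fgf6, Fgf8, Fgf20, Fgf21 and Spry3 had 0 of 85773097 counts, which allows up to 0.0350 CPM. Fgfr3, a kinase receptor, had 26 counts over WT and 33 over WT/flox progenitors, and Fgf13, an intracellular factor that binds sodium channels, had 14 and 15. In muscle 19 members passed and 15 did not, with Fgf14, Fgf15, Fgf17, Fgf20, Fgf22 and Spry3 at 0 of 90636237 counts, which allows up to 0.0331 CPM. These limits cover counting error only. Fgf20 and Spry3 had no counts in either material.

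In sorted progenitors, edgeR called 5 of the 18 tested members (27.8%) at an adjusted p under 0.05, where 3.66% of the 12392 genes tested were called. Fgfrl1, Fgf16 and Fgfr2 were higher in WT/flox and Spry2 and Fgf1 were lower. By direction the share of all genes called was 2.34% for higher and 1.32% for lower. Because the family was chosen with earlier results of these data known, these shares are a description and not an independent test. Without WT/flox replicate 3, the day 56 library, 4 were called: Fgfrl1 (log2 fold change 2.37), Fgf16 (1.74), Fgfr2 (1.46) and Spry2 (-1.17). With all libraries a further 4 members were at an unadjusted p under 0.05, 9 of 18 in all, as were 1548 of the 12392 genes. The tested members had a median log2 fold change of -0.15, against 0.00 over all genes tested, and 10 of them had libraries that lay apart by genotype, 4 higher and 6 lower in WT/flox. Over all genes this held for 16.9%, 8.73% higher and 8.17% lower. The 34 members took 0.156 to 0.179% of counts in WT against 0.142 to 0.149% in WT/flox progenitors.

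**Figure D2:**
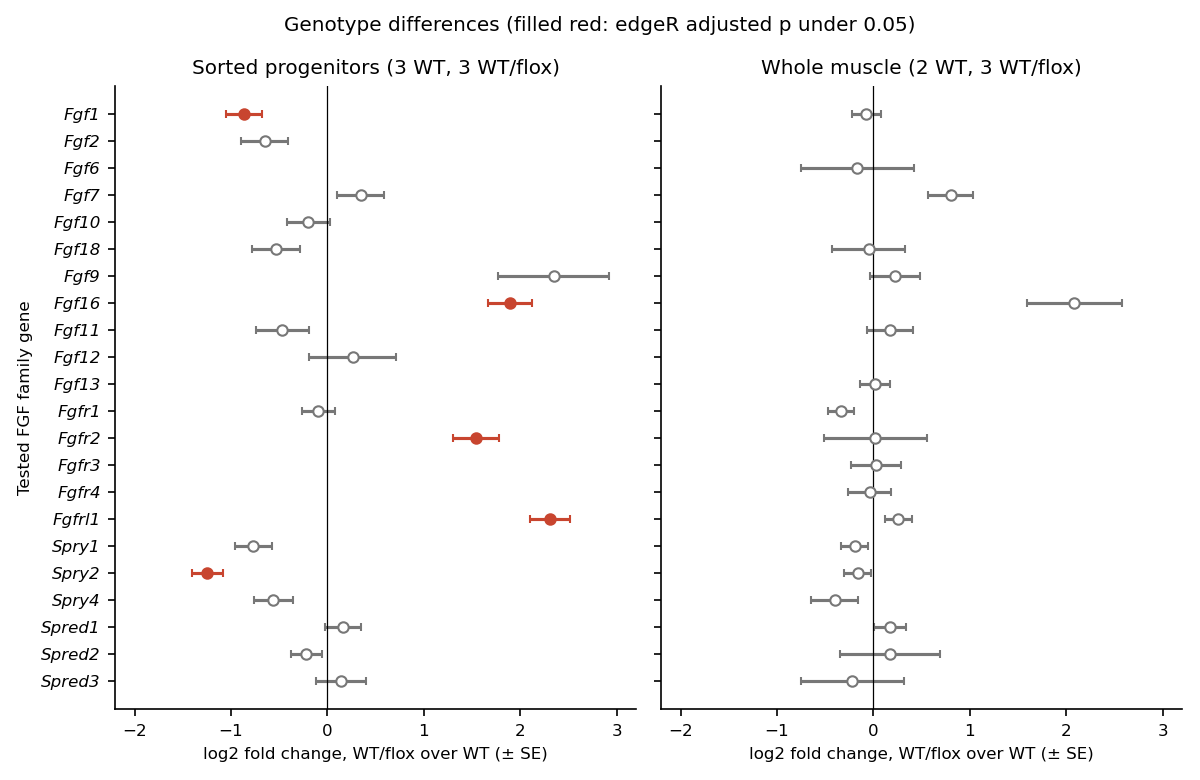
Log2 fold change of WT/flox over WT (horizontal axis) with its SE for each family gene tested in sorted progenitors (left) and whole muscle (right). Filled red points have an edgeR adjusted p under 0.05, which holds for Fgfrl1, Fgf16, Fgfr2, Spry2 and Fgf1 in progenitors and for no gene in muscle.

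Among the receptors, Fgfrl1 (ENSMUSG00000008090, GRCm38.p6 chromosome 5, 108694229 to 108706950) had the largest called change. Its WT progenitor libraries were at 21.5, 24.8 and 21.1 CPM, and its WT/flox libraries at 87.7, 144 and 102 CPM. Every WT/flox library was more than 3 times as high as any WT library. The means were 22.4 ± 2.01 and 111 ± 29.1 CPM (SD, n = 3 each). On the log2 scale this was a rise of 2.31 (SE 0.21, edgeR adjusted p = 2.4e-04). Among animals with the 72B identifier the level went from 21.5 to 144 CPM, and among those with 74A from 24.8 to 87.7 and 102 CPM.

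Fgfr2, a kinase receptor better known from epithelia (ENSMUSG00000030849, chromosome 7, 130162451 to 130266808), was low in WT progenitors and rose. Its libraries were at 5.05, 3.38 and 3.41 CPM in WT and at 12.3, 9.28 and 12.7 CPM in WT/flox, with no overlap. The log2 fold change was 1.54 (SE 0.24, adjusted p = 0.0065). Fgfr1, the main receptor, was at 742, 747 and 603 CPM in WT and at 656, 640 and 664 CPM in WT/flox progenitors. These libraries overlapped and the difference was not called (-0.09, SE 0.17, adjusted p = 0.974). The share of Fgfr1 in the 4 kinase receptors per kb was 98.0 to 98.5% in WT/flox progenitors. Per kb of all annotated exons, the ratio of Fgfrl1 to Fgfr1 was 0.103 to 0.124 in WT against 0.474 to 0.797 in WT/flox progenitors. On principal transcript length the means lay further apart, at 9.64 and 139 CPM per kb in WT, Fgfrl1 first. In WT/flox progenitors they were 47.7 and 130 CPM per kb. GENCODE lists genes on the opposite strand within the spans of Fgfr1 and Fgfr2, and strand use in the counting is not known. Where exons overlap, reads cannot be told apart, and overlap of exons was not checked. For Fgfr2 the GENCODE span runs to 133123350, past the RefSeq end, and holds same-strand genes as well. Its annotated exons there come to 10.3 kb, against 3.32 kb for the principal transcript, and the receptor shares per kb use the former. No gene on the opposite strand is listed for Fgfrl1, Fgf16 or Spry2.

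**Figure D3:**
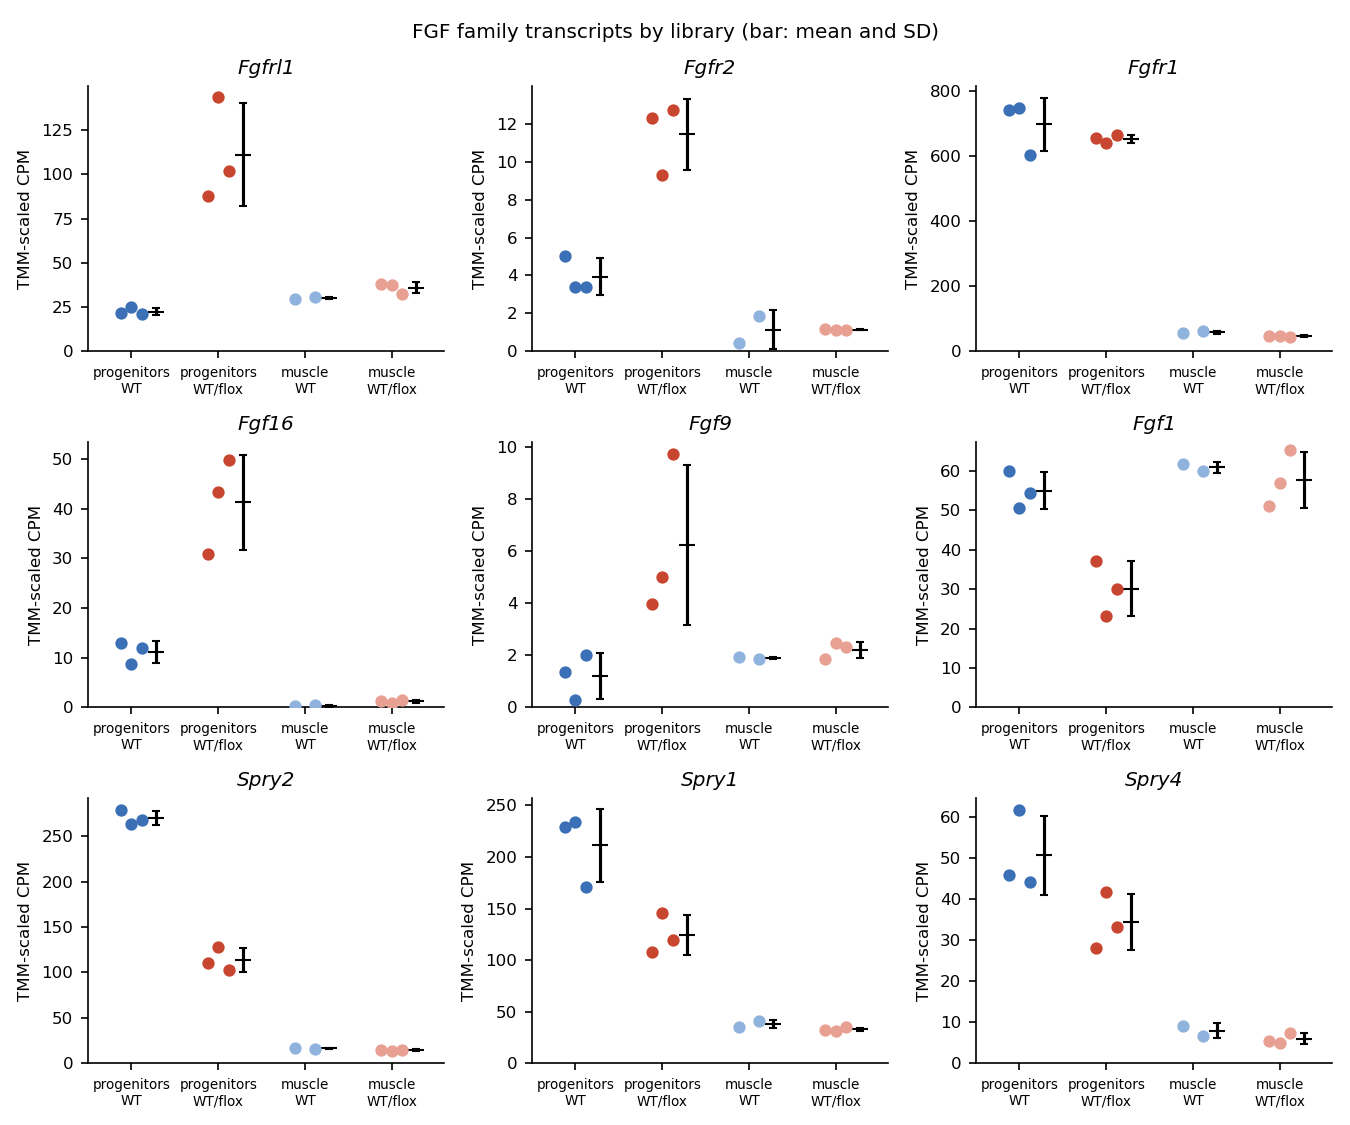
TMM-scaled CPM (vertical axis, each panel with its own scale from 0) of 9 family genes by library in the 4 groups, with mean and SD as bars. Fgfrl1, Fgfr2, Fgf16 and Fgf9 sit higher and Spry2, Spry1, Spry4 and Fgf1 lower in all 3 WT/flox than in all 3 WT progenitor libraries, and all muscle libraries of Fgfr1 and the Sprouty genes lie below all progenitor libraries.

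Among the ligands, Fgf16 rose and Fgf1 fell. Fgf16 belongs with Fgf9 and Fgf20 to a subfamily of secreted ligands (ENSMUSG00000031230, chromosome X, 105764477 to 105776532). It was at 12.9, 8.67 and 11.9 CPM in WT and at 30.9, 43.3 and 49.7 CPM in WT/flox progenitors, again without overlap. The log2 fold change was 1.89 (SE 0.23, adjusted p = 0.0015, n = 3 against 3). Fgf9, from the same subfamily, was at 1.36, 0.265 and 2.0 CPM in WT and at 3.96, 5.01 and 9.70 CPM in WT/flox. Its log2 fold change of 2.35 had an SE of 0.58 and did not pass (adjusted p = 0.0626), although DESeq2 called it (adjusted p = 4.9e-04). The third gene of the subfamily, Fgf20, had 0 counts.

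Fgf1, a ligand without a signal peptide that binds all FGF receptors (ENSMUSG00000036585, chromosome 18, 38838672 to 38929470), was at 59.9, 50.7 and 54.4 CPM in WT progenitors. The WT/flox libraries were all lower, at 37.1, 23.2 and 30.1 CPM. The log2 fold change was -0.87 (SE 0.19, adjusted p = 0.0348). This call was lost when WT replicate 1, WT replicate 3, WT/flox replicate 2 or WT/flox replicate 3 (day 56) was left out, with adjusted p = 0.133, 0.0542, 0.105 and 0.140 in that order. Fgf2, the other member of its subfamily, was at 7.21 to 9.30 CPM in WT against 4.42 to 6.97 CPM in WT/flox, and was not called (-0.65, SE 0.24, adjusted p = 0.253). Fgf1 and Fgf2 both have genes on the opposite strand (Arhgap26, and Nudt6 and Fgf2os).

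The 2 ligands with the highest level per kb in WT progenitors were not called. In WT/flox progenitors Fgf16 stood beside them, at 25.1 CPM per kb against 24.2 for each. Fgf18 was at 28.4, 57.0 and 39.7 CPM in WT and at 32.5, 23.4 and 30.4 CPM in WT/flox, and the groups overlapped (-0.54, SE 0.25, adjusted p = 0.435). Fgf7, a ligand that acts mainly on epithelial Fgfr2, was at 60.7, 42.6 and 82.3 CPM in WT and at 81.4, 63.7 and 90.4 CPM in WT/flox, also with overlap (0.34, SE 0.24, adjusted p = 0.741). Fgf10, its relative, was at 24.3 ± 2.77 and 21.1 ± 6.61 CPM (adjusted p = 0.922). Per kb, the ratio of Fgf16 to Fgf1 was 0.568 to 0.726 in WT against 2.77 to 6.20 in WT/flox progenitors. The 2 intracellular homologous factors that were tested, which do not signal through the receptors, were not called. Fgf11 was at 6.40, 5.89 and 3.88 CPM in WT against 4.40, 3.17 and 4.09 CPM in WT/flox, and Fgf12 at 0.527, 0.728 and 0.941 CPM and 1.17, 0.811 and 0.682 CPM.

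Among the Sprouty inhibitors Spry2 fell (ENSMUSG00000022114, chromosome 14, 105891947 to 105896819). Its WT progenitor libraries lay close together at 279, 263 and 268 CPM, and the WT/flox libraries were at 111, 128 and 102 CPM. The means of 270 ± 7.93 and 114 ± 13.3 CPM differed by -1.25 on the log2 scale (SE 0.16, adjusted p = 0.0023, n = 3 each). Spry1 was at 229, 234 and 171 CPM in WT and at 108, 146 and 119 CPM in WT/flox. All WT/flox libraries were below all WT libraries, but the change of -0.77 (SE 0.19) missed the edgeR threshold (adjusted p = 0.0626). DESeq2 called it (adjusted p = 0.0054), and so did edgeR without WT replicate 3 (0.0217). Spry4 was at 45.9, 61.7 and 44.2 CPM in WT and at 28.1, 41.6 and 33.2 CPM in WT/flox, without overlap and not called (-0.56, SE 0.20, adjusted p = 0.224). Summed over Spry1, Spry2 and Spry4, the level was 483 to 559 CPM in WT against 247 to 316 CPM in WT/flox progenitors, a description of the 3 genes together. Spry1 and Spry4 have genes listed on the opposite strand.

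The Spred inhibitors, known to bring neurofibromin, an inhibitor of RAS, to the membrane, gave no call. Spred1 was at 130, 143 and 149 CPM in WT and at 172, 120 and 179 CPM in WT/flox progenitors, with overlap (0.16, SE 0.19, adjusted p = 0.926). Spred2 was at 46.7, 50.1 and 47.4 CPM in WT and at 42.5, 34.8 and 46.5 CPM in WT/flox (-0.22, SE 0.16, adjusted p = 0.753). Spred3 was lower, at 9.69 ± 2.99 and 10.7 ± 1.43 CPM. The 3 Spred genes summed to 188 to 204 CPM in WT against 166 to 237 CPM in WT/flox, so these sums overlapped where those of the Sprouty genes did not.

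In whole muscle 0 of the 19 tested members were called by edgeR, where 0.727% of 12654 genes were, 0.514% higher and 0.213% lower. DESeq2 and limma voom also called 0, and Fgf16, Fgf7 and Fgfr1 were at an unadjusted p under 0.05 in edgeR, as were 1226 of the 12654 genes. For 6 of the 19 members the libraries lay apart by genotype, 3 higher and 3 lower, where this held for 25.3% of all genes, 12.4% higher and 12.9% lower. The members' median log2 fold change was 0.01, against 0.00 over all genes tested. In bulk muscle, fewer cells of a type and less RNA per cell cannot be told apart.

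Fgf16 was close to its detection limit in muscle, with 3 and 6 counts in WT against 26, 16 and 29 counts in WT/flox libraries, or 0.180 and 0.384 CPM against 1.37, 0.854 and 1.39 CPM. All WT/flox libraries were above both WT libraries, a difference of 2.08 on the log2 scale (SE 0.50, adjusted p = 0.152) that was not called. Fgf7 was at 3.59 and 2.56 CPM in WT and at 5.38, 4.75 and 5.98 CPM in WT/flox muscle (0.80, SE 0.24, adjusted p = 0.272). On CPM scaled within each material, both ligands were higher in every progenitor library than in any muscle library. The 10 progenitor markers took 0.0815 to 0.119% of counts in WT muscle and 0.160 to 0.183% in WT/flox muscle, with 0 of the 10 at 0, and their part in these differences was not tested. Markers of endothelial cells (0.0387 to 0.0396% and 0.0313 to 0.0369%) and satellite cells (0.0179 to 0.0210% and 0.0156 to 0.0164%) did not overlap between genotypes either.

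Fgfrl1 in muscle was at 29.7 and 30.6 CPM in WT and at 38, 37.7 and 32.4 CPM in WT/flox, without overlap and not called (0.26, SE 0.14, adjusted p = 0.638). Fgfr1 was at 55.8 and 62.0 CPM in WT and at 48.1, 48.4 and 43.6 CPM in WT/flox, also without overlap (-0.33, SE 0.13, adjusted p = 0.468). Their ratio per kb of all annotated exons, Fgfrl1 to Fgfr1, was 1.75 to 1.89 in WT against 2.64 to 2.80 in WT/flox muscle. The size of this ratio depends on the length used. On principal transcript length the 2 genes were closer, at means of 12.9 and 11.7 CPM per kb in WT, Fgfrl1 first. In WT/flox muscle these means were 15.5 and 9.29 CPM per kb. Fgfr2 was near 1 CPM, with 0.419 and 1.86 CPM in WT against 1.12 to 1.16 CPM in WT/flox. Fgfr3 and Fgfr4 were at 4.22 ± 0.891 and 2.82 ± 0.00422 CPM in WT and at 4.30 ± 0.950 and 2.74 ± 0.266 CPM in WT/flox muscle.

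Fgf1 and Fgf13, the leading ligand and intracellular factor of muscle, showed little difference. Fgf1 was at 61.8 and 59.97 CPM in WT and at 51.0, 57.0 and 65.2 CPM in WT/flox, with overlap (-0.08, SE 0.15, adjusted p = 0.934). Fgf13 was at 35.0 and 28.1 CPM in WT and at 29.0, 34.4 and 32.2 CPM in WT/flox (0.01, SE 0.16, adjusted p = 0.991). Fgf11 was at 4.79 and 5.70 CPM in WT and at 7.43, 4.86 and 5.46 CPM in WT/flox. Fgf6, a ligand of skeletal muscle, had 16 and 4 counts in WT against 7, 13 and 12 in WT/flox libraries. Of the members too low to test in muscle, Fgf10 had 4 counts over WT and 24 over WT/flox, Fgf2 had 7 and 21, Fgf5 had 17 and 7, and Fgf23, a hormone of bone, had 4 and 0.

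On the same scale Spry1, Spry2, Spry4, Spred1 and Spred2 were lower in every muscle library than in any progenitor library, a comparison across tables that was not tested. Spry1 was at 35.1 and 40.7 CPM in WT and at 32.6, 31.8 and 34.9 CPM in WT/flox muscle (-0.19, SE 0.14, adjusted p = 0.753). Spry2 was at 16.9 and 15.9 CPM in WT and at 15.1, 13.7 and 15.1 CPM in WT/flox (-0.17, SE 0.14, adjusted p = 0.810). Neither overlapped between genotypes and neither was called. Spry4 overlapped, at 9.16 and 6.60 CPM and at 5.53, 4.86 and 7.47 CPM. Spred1 was at 14.1 and 12.2 CPM in WT and at 13.2, 14.8 and 16.4 CPM in WT/flox, and Spred2 at 5.75 and 1.60 CPM and at 2.95, 3.41 and 6.08 CPM.

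Whether the genotype effect differed between materials was tested in 1 edgeR fit over the 11 libraries. Of 22 members tested, 2 were called, Fgfrl1 and Spry2, where 0.769% of 13781 genes were. For Fgfrl1 the effect in muscle minus that in progenitors was -1.999 on the log2 scale (SE 0.27, adjusted p = 0.0027). For Spry2 it was 1.13 (SE 0.22, adjusted p = 0.0298). The Spry2 call was lost without progenitor WT replicate 1 (adjusted p = 0.0585), progenitor WT/flox replicate 1 (0.0857) or replicate 3 (0.0817), muscle WT replicate 1 (0.0766) or replicate 2 (0.131), or muscle WT/flox replicate 1 (0.0975), replicate 2 (0.0796) or replicate 3 (0.0771). Fgf16 had effects of 1.89 in progenitors and 2.08 in muscle, which differed by 0.25 (SE 0.53, adjusted p = 0.990). For Fgf1 the difference was 0.84 (SE 0.26, adjusted p = 0.239) and for Fgfr2 -1.47 (SE 0.56, adjusted p = 0.410), and the latter was called when muscle WT replicate 1 was left out. Material and day after tamoxifen went together in all libraries except progenitor WT/flox replicate 3, so they cannot be told apart here. The muscle side of the difference also carries the identifier series, which cannot be told apart from genotype there.

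The genes around the family were followed in 3 lists: 18 co-factors (Klotho proteins, FGF-binding proteins, Flrt and heparan sulfate enzymes), 22 genes of the signal relay downstream of the receptors, and 15 genes that respond to FGF or ERK. In progenitors edgeR called 1 of 15 tested co-factors higher and 1 lower, 0 of 22 relay genes, and 1 of 13 response genes higher, where 3.66% of all genes tested were called (2.34% higher and 1.32% lower). The counts for the relay and response lists are near that share. The median log2 fold changes of the lists were 0.00, 0.04 and -0.03, against 0.00 over all genes tested.

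Kl, alpha-Klotho, the co-receptor for Fgf23 (ENSMUSG00000058488, chromosome 5, 150952607 to 150993817), rose the most of these. It was at 0.603, 0.199 and 0.471 CPM in WT and at 6.75, 5.45 and 6.44 CPM in WT/flox progenitors. The groups lay far apart, with a log2 fold change of 3.86 (SE 0.38, adjusted p = 4.7e-04). Its ligand Fgf23 had 1 count over WT and 4 over WT/flox progenitors. Ext1, which builds heparan sulfate chains (ENSMUSG00000061731, chromosome 15, 53068261 to 53346183), was at 176, 156 and 149 CPM in WT and at 105, 87.8 and 93.7 CPM in WT/flox, a log2 fold change of -0.75 (SE 0.16, adjusted p = 0.0283). The Ext1 call was lost without WT replicate 1 or 2 (adjusted p = 0.127 and 0.0561) or WT/flox replicate 1, 2 or 3 (0.0791, 0.103 and 0.130). The most abundant co-factors, the extracellular sulfatases Sulf1 (320 ± 76.6 and 310 ± 75.6 CPM) and Sulf2 (285 ± 29.6 and 221 ± 34.9 CPM), were not called.

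Of the relay genes the phosphatase Ptpn11 was at 153 ± 8.77 and 159 ± 9.01 CPM, WT first (SD, n = 3 each), and was not called. The called response gene was Ccnd1, cyclin D1, which is also a known target of beta-catenin (ENSMUSG00000070348, chromosome 7, 144929931 to 144939831). It was at 38, 16.6 and 35.4 CPM in WT and at 132, 86.6 and 152 CPM in WT/flox progenitors (2.04, SE 0.32, adjusted p = 0.0074). With the series of the animal identifier as a term in the model, this call was lost (adjusted p = 0.165). Dusp6, the ERK phosphatase used as a readout of FGF signalling, was at 38.3 ± 3.19 CPM in WT against 36.6 ± 13.5 CPM in WT/flox (-0.07, SE 0.24, adjusted p = 0.994). The ETS factor Etv5 was at 20.05 ± 2.10 and 16.1 ± 1.89 CPM. The early genes Egr1 (1631 ± 688 and 1166 ± 445 CPM) and Fos (1644 ± 923 and 1162 ± 577 CPM) varied widely within each genotype, and none of these 4 was called. Transcript levels do not show the activity of the kinases.

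**Figure D4:**
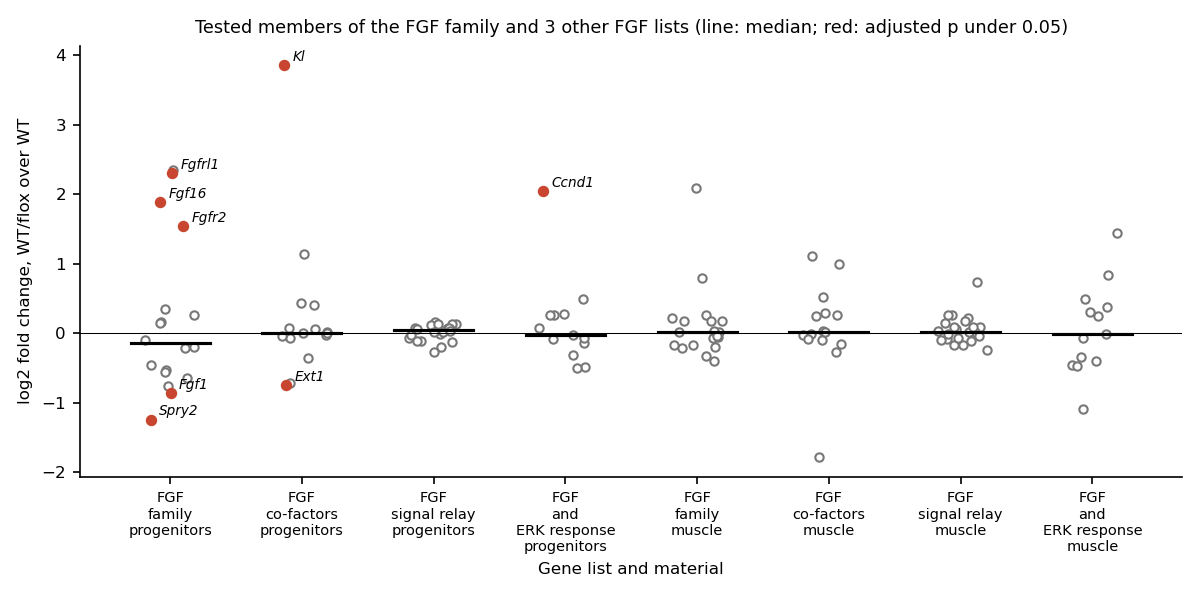
Log2 fold change of WT/flox over WT (vertical axis) for each tested gene of the FGF family and of the 3 other FGF lists (horizontal axis), in progenitors and in muscle, with the median as a line. Red points have an edgeR adjusted p under 0.05 and are Fgfrl1, Fgf16, Fgfr2, Fgf1, Spry2, Kl, Ext1 and Ccnd1, all in progenitors.

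In muscle 0 of 15 co-factors, 0 of 22 relay genes and 0 of 13 response genes were called by edgeR, and DESeq2 and voom called 0 as well. With 0.727% of all genes called, these counts of 0 say nothing particular of the lists. The genes with the lowest unadjusted p in edgeR, named after their values were seen, were Maff at 0.0021, Fgfbp1 at 0.0027, Fgfbp3 at 0.0028 and Flrt1 at 0.0041. Fgfbp1, which releases FGFs from the matrix, was at 2.75 and 1.28 CPM in WT and at 0.632, 0.640 and 0.479 CPM in WT/flox muscle (-1.79, SE 0.41, adjusted p = 0.138), and was called when muscle WT replicate 2 was left out. Among the most abundant genes of the lists, the heparan sulfate enzymes Ndst1 (56.9 ± 27.6 and 58.2 ± 15.3 CPM) and Hs6st1 (35.0 ± 4.40 and 41.5 ± 2.79 CPM), Ptpn11 (189 ± 26.5 and 191 ± 14.4 CPM), Dusp6 (18.4 ± 3.23 and 13.4 ± 3.12 CPM) and Ccnd1 (12.7 ± 1.23 and 15.7 ± 2.56 CPM), were not called (SD, n = 2 and 3). Kl was at 0.556 ± 0.0608 and 0.463 ± 0.103 CPM in muscle.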

How the data were processed

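RNA was sequenced from sorted progenitors and from muscle lysate with a stranded mRNA kit as paired reads of 43 bp, per the labels' protocols. Build mm10 and the tools bcl2fastq 2.20, STAR and Bowtie are listed in the submitters' processing notes. How reads were assigned to genes, and whether strand was used, is not given in the sources used here. For each material the authors deposited 1 table of whole-number counts by symbol, with 0 rows that name no gene. The deposited sample table of the lysates calls them FAPs, and the labels, which call them whole muscle lysate, were followed. That table also gives sex (1 female and 2 males in each progenitor group, males in muscle).

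Each material was fitted alone in R 4.3.3 with edgeR 4.0.16 after filterByExpr and TMM scaling, using the robust two-sided quasi-likelihood F test. P-values were adjusted over all genes tested (Benjamini-Hochberg), with calls at under 0.05. CPM were computed from the counts with TMM factors set within each material, and SDs are over libraries. The scripts were tested on simulated counts. Libraries of a group differed by more than sampling noise (9.65 to 84.4 chi-square units per degree of freedom). P-values set the difference between groups against the spread between animals within them. In WT/flox progenitors that spread includes both day 14 and day 56. GENCODE M21 (GRCm38) matched 23376 symbols and 33 of 34 members (not Spry3) and gave exon lengths; coordinates and promoters are from RefSeq on GRCm38.p6.

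Members and lists were chosen with earlier results of these data known. Values per library are given for called members, the 2 members of each role with the highest CPM per kb in each material, and members with a called interaction. Of other lists, called genes and the 2 with the highest CPM are named, except 2 results that are not reported here. Fgf9, Fgf2 and Spry4 are given beside their relatives. Alternatives were RLE size factors, DESeq2 1.42.0, limma 3.58.1 voom, no filter beyond a total count of 1, 1 fit over 11 libraries, terms for identifier series or sex, and leaving out each library. A replicate block and the principal transcript length were added after seeing the data.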

Additional observations from a re-analysis of the deposited data

Results flagged for a closer look

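For 2 members the genotype effect in muscle differed from that in progenitors by a test of the difference itself. The effect on Fgfrl1 in muscle minus that in progenitors was -1.9989 on the log2 scale, and that on Spry2 was 1.1313. Fgfrl1 was higher in 3 of 3 WT/flox libraries than in every WT library in both materials, while its log2 fold change was 2.31 in progenitors and 0.26 in muscle. Spry2 was lower in 3 of 3 WT/flox libraries in both materials, with log2 fold changes of -1.25 and -0.17. As given above, the Spry2 call was lost when any 1 of several libraries was left out, while the Fgfrl1 call was kept. Material and day after tamoxifen cannot be told apart for either gene, nor can identifier series and genotype in muscle. Whole muscle is a mixture of cells. The 10 progenitor markers took 0.0815 to 0.183% of counts in its libraries, against 5.09 to 7.48% in sorted libraries. The part of this mixture in the 2 differences was not tested.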

How the results depend on the processing

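Fgfrl1, Fgf16, Fgfr2, Spry2 and Kl were called in progenitors under all 14 alternatives. The 5 members called became 7 with DESeq2 and with 1 fit over all libraries (Fgf9 and Spry1 added), 6 without a filter, with identifier series, with sex or with the replicate block, and 4 to 5 with a library left out. Over all genes in progenitors, DESeq2 called 744 and leaving out a library gave 262 to 483 (266 without WT/flox replicate 2 and 262 without replicate 3). In muscle 0 members were called under every alternative run, while the count over all genes was 259 with DESeq2, 139 without a filter, 178 with the replicate block and 0 to 239 with a library left out (239 and 207 without WT replicate 1 and 2, 25 and 0 without WT/flox replicate 2 and 3). The co-factor list in progenitors had 1 call with the replicate block and 1 to 2 with a library left out, and in muscle 0 to 1. The response list had 0 calls in progenitors with identifier series and 1 in muscle with the replicate block (Fos). Interaction calls among members were 1 to 2 with a library left out. Levels per kb on principal transcripts were 139 for Fgfr1 in WT progenitors, 15.3 for Fgf1 and 12.9 for Fgfrl1 in WT muscle. The cause of these shifts was not tested, beyond the fewer samples of leaving 1 out.

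Of the values for single genes, 518 kept direction and call, 9 gained and 19 lost a call, and 27 changed sign, none of them called. Spred3 in progenitors was -0.087 with identifier series. In muscle Fgf6 was 0.038 with voom, and the replicate block gave Ext1 0.072, Fgf1 8.2e-04, Fgf11 -0.024 and Fgf6 0.19. With a library left out, log2 fold changes that changed sign ranged from -0.10 to 0.28 for Spred3 in progenitors and, in muscle, from -0.13 to 0.078 for Ext1, -0.17 to 0.0060 for Fgf1, -0.023 to 0.30 for Fgf11, -0.14 to 0.18 for Fgf13, -0.26 to 0.18 for Fgf18, -0.81 to 1.07 for Fgf6, -0.70 to 1.43 for Fgfr2, -0.17 to 0.26 for Fgfr3, -0.10 to 0.038 for Fgfr4, -0.46 to 1.38 for Spred2 and -0.55 to 0.19 for Spred3. The Fgf16 interaction ranged from -0.18 to 0.84. A muscle WT group of 1 library was taken to vary like the other groups.

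The replicate block used the numbers of the deposited sample tables, which the labels do not give and which differ from the replicate numbers used in the text to name libraries (in the order of the labels). Same-numbered libraries correlated in their deviations at 0.29, 0.03 and -0.13 in progenitors and at -0.02 and -0.48 in muscle. In progenitors the libraries numbered 1 were both female with 74A identifiers, and those numbered 2 were both male with 72B identifiers. Deviations from the mean of so few libraries are tied to each other, and those of the 2 muscle WT libraries mirror each other. These correlations therefore cannot decide whether the samples were paired. Low counts, such as the 3 to 29 per library for Fgf16 in muscle, limit what can be called there.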
